A study of Homo sapiens with 9 samples.

Results

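Aminoacyl-tRNA synthetases join each amino acid to its own tRNA. The genes described here are 35 of the 18132 measured in Y79 cells, a human retinoblastoma line that grows in suspension. A gene entered when at least 1 probe set of the array was annotated to its symbol and to no other, which gave 19 genes for cytosolic enzymes with 53 probe sets and 16 genes for mitochondrial enzymes with 35 probe sets. The other 4 probe sets annotated to a member shared their annotation with a second gene (HARS1 with ATP13A5, VARS2 with GTF2H4 on 2 probe sets, TARS2 with EMX1) and were left out.

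RNA was profiled on 9 Affymetrix PrimeView arrays, 3 of untreated cells, 3 of cells given gold nanoparticles (GNPs, called bare particles here) and 3 of cells given the same kind of particle joined to an HDM2 peptide (GNPs-HDM2, called the conjugate). HDM2 is the ubiquitin ligase that holds p53 down. All cells were kept in RPMI medium, and 6 ug of total RNA was labelled per array. Some labels write Y97 where others write Y79. The labels give no dose, time or culture for any array. The p-values therefore speak of the spread among these 9 samples alone, and that spread may be technical. The array values are bulk measurements on equal amounts of RNA, so they do not follow the number of cells. Whether all cells of a sample changed or only some cannot be told from them.

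Cytosolic synthetases charge the tRNAs that read messages from the nucleus, and mitochondrial synthetases, also coded in the nucleus, charge the tRNAs that read the few messages of the mitochondrial genome. Several cytosolic enzymes sit together in the multisynthetase complex. Many cytosolic synthetase genes are known targets of ATF4, the transcription factor made when uncharged tRNA activates the kinase GCN2. ATF4 pairs with C/EBP proteins on a composite site whose core reads TGATGNAA, where N is any base.

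That core was looked for in RefSeq promoter windows (GRCh38.p14, 250 bases before to 50 after a start). It is described because all 8 genes that hold it were among the 13 whose values lay apart with bare particles, as given further on. It was 1 of 7 motifs searched on both strands, all after the members' values had been seen, and the choice to describe it was made on those values. The windows held 30 of the 35 members. VARS1, VARS2, AARS2, LARS1 and YARS1 were not among them. The core lay in the windows of 7 of 16 cytosolic genes and 1 of 14 mitochondrial genes, and in 3.62% of all 35116 windows. Each sequence below reads 5′ to 3′ on the gene's own strand, with the core in capitals, which reads as its reverse complement where it lies on the other strand.
AARS1, chr16:70289675-70289704, minus strand: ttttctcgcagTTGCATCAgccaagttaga
CARS1, chr11:3057407-3057436, minus strand: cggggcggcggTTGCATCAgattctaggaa
GARS1, chr7:30594834-30594863, plus strand: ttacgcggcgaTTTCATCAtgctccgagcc
IARS1, chr9:92293692-92293721, minus strand: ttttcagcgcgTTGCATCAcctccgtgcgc
MARS1, chr12:57488053-57488082, plus strand: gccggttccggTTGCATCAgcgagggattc
NARS1, chr18:57621804-57621833, minus strand: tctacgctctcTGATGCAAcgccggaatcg
TARS1, chr5:33440956-33440985, plus strand: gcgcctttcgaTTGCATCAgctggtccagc
YARS2, chr12:32756076-32756105, minus strand: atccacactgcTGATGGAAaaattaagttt

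In CARS1, MARS1, IARS1, TARS1, NARS1 and GARS1 the core lay within 33 bases of the annotated start. In AARS1 it began at -187 from the start, and in YARS2, the single mitochondrial holder, at -197. Of the other motifs, the ETS core CCGGAAG lay in the windows of 16 of the 30 members and 10.3% of all windows, the cAMP response element TGACGTCA in 0 and 1.85%, and CCAAT in 16 and 34.6%. The NRF1 element lay in 1 member window and 1.24% of all windows, the same element with any base at 1 inner position, which includes it, in 6 and 5.78%, and an interferon response element in 2 and 3.57%. A match is a string of letters and not a measured binding site.

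The genes of the histidyl enzymes, HARS1 for the cytosol and HARS2 for mitochondria, start 85 bases apart on opposite strands. The 84 bases between their starts are shown because they are the whole promoter space that a cytosolic and a mitochondrial member share. CCGGAAG, a core bound by ETS factors, is in capitals and occurs 2 times, once on each strand.
HARS1 and HARS2, chr5:140691371-140691454, plus strand (the HARS2 strand): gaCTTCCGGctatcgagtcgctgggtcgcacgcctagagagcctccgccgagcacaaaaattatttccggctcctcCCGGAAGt

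The deposited values are on a log scale, taken as log2, and each probe set is set against its own baseline, so a value of 0 is that baseline and values of different genes do not compare their levels. Probe sets were sorted into dim, middle and bright classes (baseline 2 to 4, 4 to 8 and 8 to 16) from the rounding step of their stored digits, which grows with the original value. Of the cytosolic probe sets 37 were bright, 14 middle and 2 dim. Of the mitochondrial probe sets 8 were bright, 23 middle and 4 dim. This matters because on the conjugate arrays the change followed the class in the whole table. The median change from untreated cells was -1.20 over all bright probe sets, 0.22 over all middle ones and 0.49 over all dim ones. The 18 hybridization control probe sets, which report on spiked material and not on the cells, moved too, from -0.38 ± 0.05 (SD, n = 3) in untreated to 1.68 ± 0.30 in conjugate arrays. Their part in the members' changes was not tested. Conjugate results are therefore given as deposited and again after each array was centred on its median within each class. Conjugate replicate 3 stood apart, with an SD over all probe sets of 0.645 against 1.25 and 1.49 on the other conjugate arrays. Of the photoreceptor and retinoblastoma markers, 6 of 10 genes (among them CRX and OTX2) had a bright probe set, as had 2 of 4 Mueller glia genes, and of the markers of pigment epithelium, fibroblasts and blood, 0 of 4, 0 of 5 and 0 of 3 had one. With the conjugate 4 of the 10 photoreceptor markers fell (CRX -1.70, OTX2 -1.94 and RBP3 -3.95 among them). The markers that rose were 4 of 4 pigment epithelium, 3 of 5 fibroblast and 2 of 3 blood markers (limma). Of the 4 Mueller glia markers, 2 fell (VIM -2.14 and GLUL -1.04) and 1 rose (SOX9, 0.89). Of all genes, 33.1% were called higher and 25.1% lower. After level centring 3 of the 10 photoreceptor markers fell and 1 rose. Of the pigment epithelium, fibroblast and blood markers 1 of 4, 2 of 5 and 0 of 3 then rose. Of the Mueller glia markers 2 fell and 1 rose. The shares of all genes were then 22.6% higher and 21.5% lower. The part of other cell types in the synthetase changes was not tested.

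**Figure D1:**
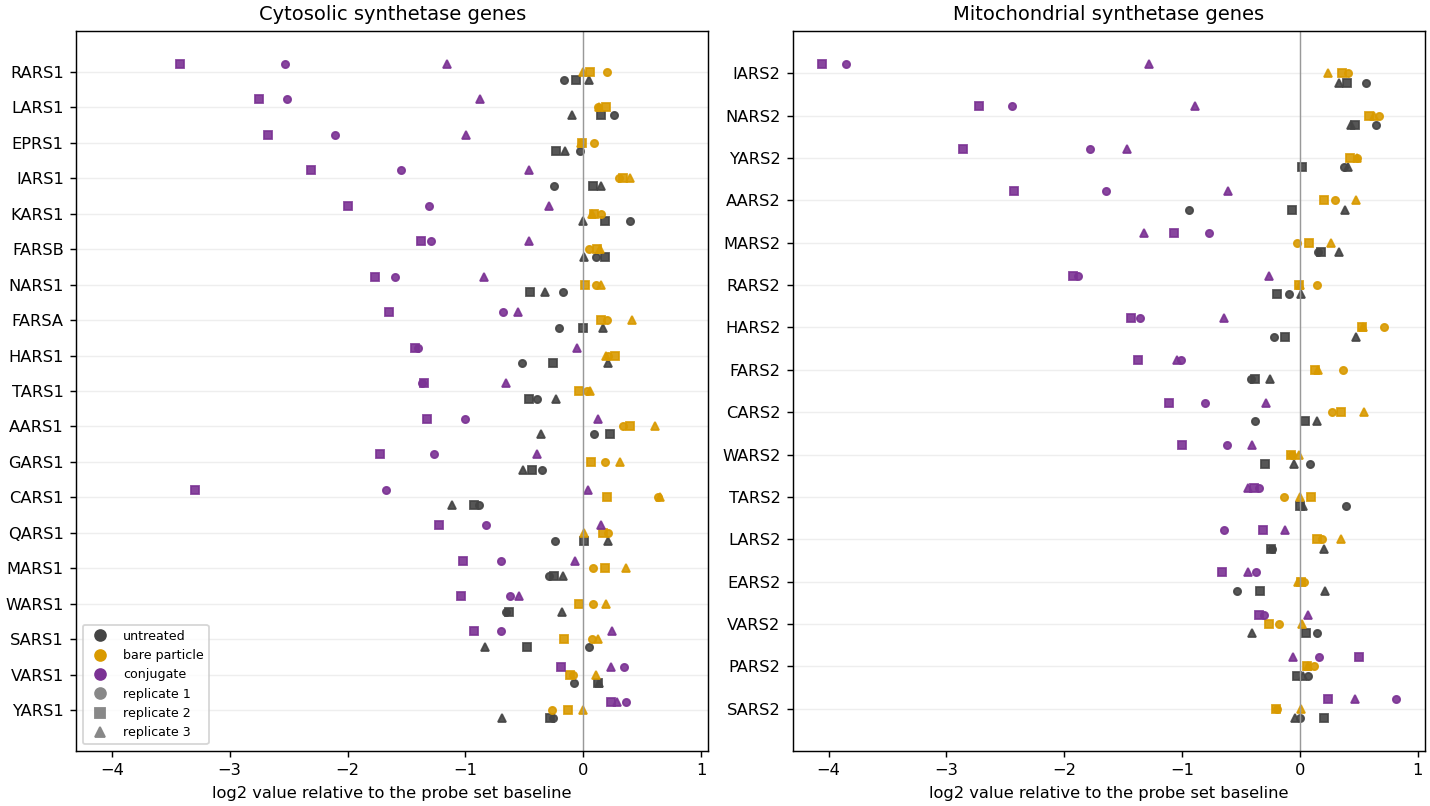
Log2 value of each synthetase gene, relative to its probe set baseline, on each of the 9 arrays (colour, group; marker shape, replicate). Bare particle values sit close together near or just above 0. Conjugate values lie apart and lower for 18 genes and apart and higher for 2, and reach furthest for IARS2, at -3.85, -4.06 and -1.28.

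With the conjugate, 9 of the 19 cytosolic genes fell, 1 rose and 9 did not pass the test, and 11 of the 16 mitochondrial genes fell, 0 rose and 5 did not pass (limma, Benjamini-Hochberg adjusted p under 0.05). Of all genes, 33.1% were called higher and 25.1% lower. The median change was -0.76 over the cytosolic and -0.73 over the mitochondrial genes, against 0.25 over all genes. After centring within level classes the calls were 4 cytosolic genes higher and 4 lower, and 0 mitochondrial genes higher and 7 lower, where 22.6% of all genes were called higher and 21.5% lower. The medians were then -0.22 and -0.44, against 0.06 over all genes. The called mitochondrial genes were all lower under both scalings. The centred cytosolic calls, 4 of 19 each way, were near the shares over all genes. In all, 11 genes fell under both scalings. They were EPRS1, FARSA, LARS1 and RARS1 of the cytosol and AARS2, HARS2, IARS2, MARS2, NARS2, TARS2 and YARS2 of mitochondria. YARS1 was the gene that rose under both. Fitted with the untreated and conjugate arrays alone, after the same centring, all of these 12 genes but AARS2 kept their call.

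As deposited, that fit of the 2 groups called 1 gene higher and 16 lower (all genes, 17.0% and 18.5%), and group weights for unequal spread gave 0 and 16 (all genes, 17.2% and 19.8%). Quantile normalization left 2 higher and 8 lower (all genes, 3.15% and 7.47%). Without conjugate replicate 3, 26 members were lower and 2 higher (all genes, 31.8% and 45.7%). Of the probe sets, 26 of 53 cytosolic ones fell and 2 rose, and 15 of 35 mitochondrial ones fell and 1 rose, where 23.7% of all probe sets were called lower and 24.9% higher.

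**Figure D2:**
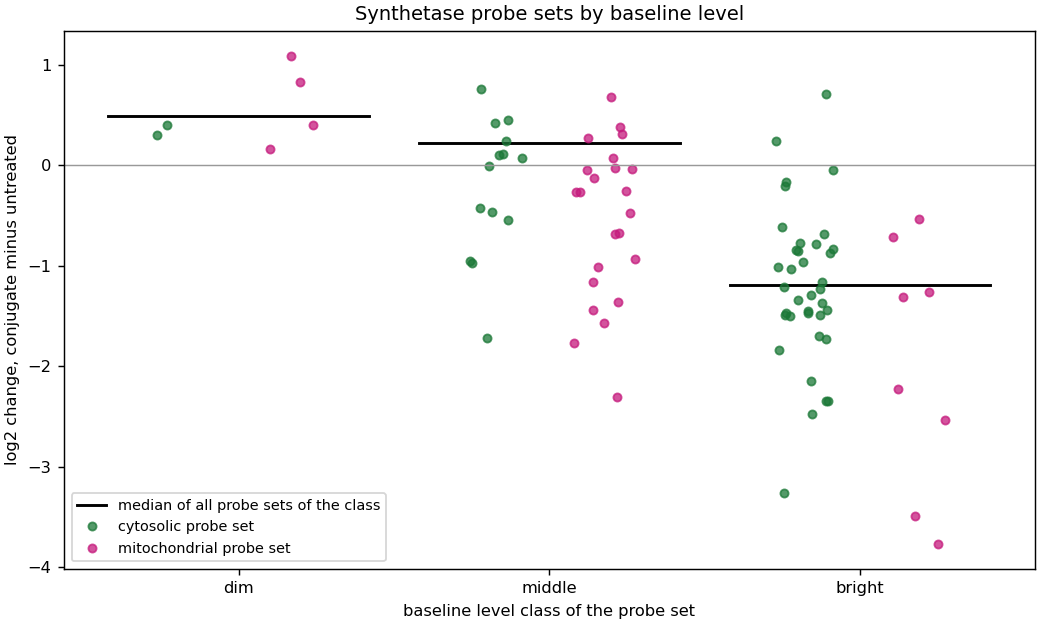
Log2 change (conjugate minus untreated) of each of the 88 synthetase probe sets, by class of baseline level. Horizontal bars are the medians of all probe sets in the class. The 37 bright cytosolic probe sets scatter around the bar of their class at -1.20, with a median of -1.23, and the middle mitochondrial ones lie mostly below their bar of 0.22, with a median of -0.27.

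Within the classes, the bright cytosolic probe sets had a median change of -1.23, near the -1.20 of all bright probe sets, and the middle ones 0.03 against 0.22. The mitochondrial probe sets lay further down in both, at -1.77 in the bright class and -0.27 in the middle class. In the dim class the 2 cytosolic and 4 mitochondrial probe sets had medians of 0.35 and 0.62. Probe sets of 1 gene often disagreed. Of the 27 members with more than 1 probe set, 15 had probe set changes more than 1 apart. MARS2 was the widest case, with 1 bright probe set at -3.77 and 2 middle ones at -0.03 and -0.04, so its gene value rests on 1 probe set. TARS2, called lower under both scalings, has 2 middle probe sets that moved in opposite directions, at -1.44 and 0.38. Its fall thus rests on 1 probe set as well.

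The 7 measured enzymes of the multisynthetase complex had a median change of -1.43 with the conjugate, and 5 of them fell. The 12 cytosolic genes outside the complex had a median of -0.71, with 4 that fell and 1 that rose. Of all genes, 25.1% were called lower and 33.1% higher. After level centring the medians were -0.26 and 0.15, with 3 of the 7 lower, against 1 of the 12 lower and 4 higher. The shares of all genes were then 21.5% lower and 22.6% higher. In the complex EPRS1, IARS1, KARS1, LARS1 and RARS1 had bright probe sets only, and outside it GARS1, SARS1, TARS1 and YARS1. Over all bright probe sets the median change was -1.20. RARS1, the arginyl enzyme of the complex, was at -0.16, -0.06 and 0.05 in untreated cells and at -2.53, -3.42 and -1.15 with the conjugate. The groups did not overlap, and the change was -2.31 ± 0.44 (SE), 4.97-fold lower (adjusted p = 0.00398). It was still -1.14 ± 0.19 after level centring (adjusted p = 0.00199).

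LARS1, the leucyl enzyme, which also acts as a leucine sensor for mTORC1, lay at 0.26, 0.15 and -0.09 in untreated cells and at -2.52, -2.75 and -0.88 with the conjugate. All conjugate arrays were below all untreated ones. Its change was -2.15 ± 0.40 (adjusted p = 0.00366), and -0.98 after level centring (adjusted p = 0.00287). Its 3 probe sets, all bright, changed by -3.27, -1.70 and -1.49, and each passed the test over probe sets. EPRS1, which charges both glutamyl and prolyl tRNA from a single chain, was at -0.03, -0.23 and -0.15 in untreated and at -2.10, -2.68 and -0.997 in conjugate arrays, without overlap. The change of -1.79 ± 0.34 (adjusted p = 0.00396) became -0.62 after level centring (adjusted p = 0.00387).

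IARS1, the isoleucyl enzyme, and KARS1, the lysyl enzyme that serves both compartments from 1 gene, moved with the bright probe sets in general. IARS1 went from -0.25, 0.08 and 0.15 to -1.54, -2.31 and -0.46, and KARS1 from 0.40, 0.19 and -0.00 to -1.31, -1.99 and -0.29. Neither gene's groups overlapped, and the changes were -1.43 ± 0.37 (adjusted p = 0.0116) and -1.39 ± 0.35 (adjusted p = 0.00993). Centred by level they were -0.26 and -0.22 and did not pass (adjusted p = 0.18 and 0.226). MARS1 and QARS1, the methionyl and glutaminyl enzymes of the complex, changed by -0.36 and -0.63 and did not pass (adjusted p = 0.183 and 0.0957). AIMP1, a scaffold protein of the complex, fell by 1.83 as deposited (adjusted p = 0.00446) and by 0.93 after level centring (adjusted p = 0.00358).

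Outside the complex, YARS1 was the 1 member called higher as deposited, of 4 with a positive change. This tyrosyl enzyme lay at -0.26, -0.28 and -0.69 in untreated cells and at 0.36, 0.23 and 0.29 with the conjugate. All conjugate values were above all untreated ones, by 0.71 ± 0.17 (adjusted p = 0.00808), and by 1.88 ± 0.31 after level centring (adjusted p = 0.00222). It has 1 bright probe set here, and with group weights the difference as deposited did not pass (adjusted p = 0.0722). SARS1, the seryl enzyme, was at 0.05, -0.47 and -0.83 in untreated and -0.70, -0.93 and 0.24 in conjugate arrays. These overlapped widely and the change as deposited was -0.04 ± 0.31 (adjusted p = 0.907), but 1.13 ± 0.22 after level centring (adjusted p = 0.00372).

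GARS1, the glycyl enzyme, which like KARS1 serves both compartments, was at -0.35, -0.43 and -0.51 in untreated cells and -1.27, -1.73 and -0.39 with the conjugate. Replicate 3 overlapped the untreated arrays, and the change of -0.70 ± 0.29 did not pass (adjusted p = 0.0576). Without conjugate replicate 3 it was -1.07 (adjusted p = 0.000236), and after level centring it turned to 0.47 (adjusted p = 0.0133). WARS1, the tryptophanyl enzyme and an interferon target, was at -0.66, -0.63 and -0.18 in untreated and at -0.62, -1.04 and -0.55 in conjugate arrays. The groups overlapped, and its change of -0.25 ± 0.19 (adjusted p = 0.28) turned to 0.51 after level centring (adjusted p = 0.0485). For both genes the direction depended on the scaling.

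The cytosolic phenylalanyl enzyme is built of the subunits FARSA and FARSB. FARSB was at 0.11, 0.18 and 0.01 in untreated and at -1.29, -1.37 and -0.46 in conjugate arrays, without overlap. Its change was -1.14 ± 0.23 (adjusted p = 0.00467) and did not pass after level centring (-0.30, adjusted p = 0.0764). FARSA, from 1 middle probe set, changed by -0.95 ± 0.27 (adjusted p = 0.0158) and by -1.12 after level centring (adjusted p = 0.0134). TARS1, the threonyl enzyme, fell as deposited (-0.76 ± 0.20, adjusted p = 0.0125), but its direction turned after level centring (0.41, adjusted p = 0.0989). Its 3 probe sets, all bright, disagreed as deposited, at -1.16, -1.37 and 0.24. VARS1, the valyl enzyme, was among the cytosolic genes with the smallest change of the gene mean. Its values of -0.08, 0.13 and 0.13 in untreated and 0.35, -0.19 and 0.24 in conjugate arrays gave 0.07 ± 0.18 (adjusted p = 0.743). That mean averages probe sets that disagree. In the limma test over probe sets a bright one was called lower (-0.85, adjusted p = 0.0354) and a middle one higher (0.76, adjusted p = 0.0231).

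**Figure D3:**
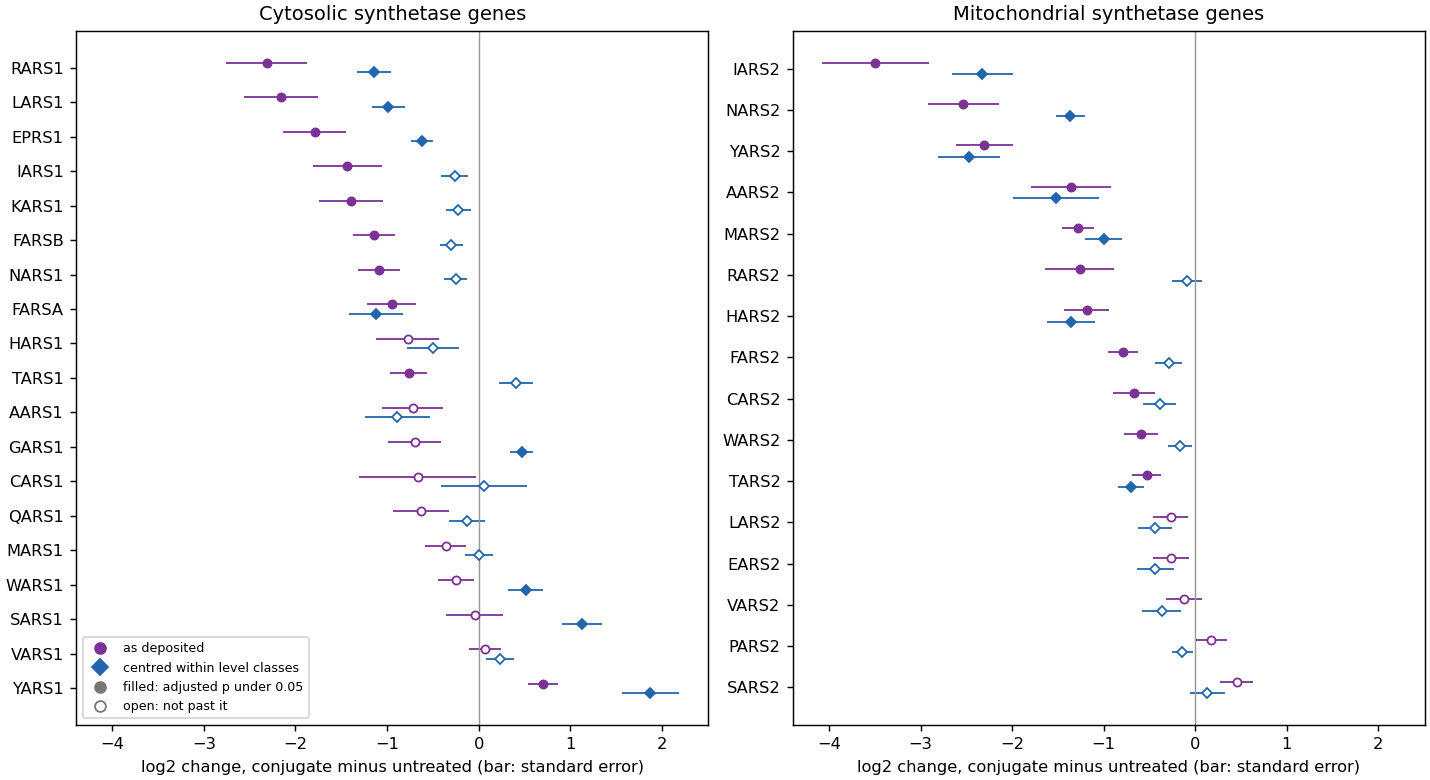
Log2 change of each synthetase gene with the conjugate against untreated cells, as deposited (circles) and after centring within level classes (diamonds), with standard errors from the fit. Filled symbols passed the test. In the cytosolic panel the diamonds lie on both sides of 0, from -1.14 for RARS1 to 1.88 for YARS1. In the mitochondrial panel they run from -2.47 for YARS2 to 0.13 for SARS2, and the filled ones all lie below 0.

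As deposited the deepest falls of the family were those of the mitochondrial IARS2 and NARS2, followed by the cytosolic RARS1 (-2.31). IARS2, the mitochondrial isoleucyl enzyme, was at 0.56, 0.40 and 0.33 in untreated cells and at -3.85, -4.06 and -1.28 with the conjugate. The groups did not overlap, though the conjugate arrays spread widely, and the change was -3.49 ± 0.58, 11.3-fold lower (adjusted p = 0.00262), or -2.32 ± 0.33 after level centring (adjusted p = 0.0012). It rests on 1 bright probe set.

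NARS2, the asparaginyl enzyme, was at 0.64, 0.47 and 0.43 in untreated cells and at -2.44, -2.73 and -0.89 with the conjugate. Its change was -2.53 ± 0.39 (adjusted p = 0.00201), and -1.36 ± 0.16 after level centring (adjusted p = 0.000502). YARS2, the tyrosyl enzyme, went from 0.37, 0.02 and 0.41 to -1.78, -2.86 and -1.47. Its 1 probe set is of the middle class, where the table as a whole rose, so level centring made the change no smaller: -2.30 ± 0.31 (adjusted p = 0.0013) as deposited and -2.47 ± 0.33 (adjusted p = 0.000957) centred. In both genes every conjugate array lay below every untreated one.

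MARS2, the methionyl enzyme, went from 0.15, 0.18 and 0.34 to -0.77, -1.07 and -1.33, a change of -1.28 ± 0.18 (adjusted p = 0.00145) with the disagreement of probe sets given above. HARS2 went from -0.22, -0.13 and 0.47 to -1.36, -1.43 and -0.65, a change of -1.19 ± 0.25 (adjusted p = 0.00547) and -1.36 after level centring (adjusted p = 0.00402). RARS2, the arginyl enzyme, went from -0.10, -0.20 and 0.01 to -1.88, -1.93 and -0.26. None of these 3 genes overlapped between the groups, but for RARS2 the change of -1.26 ± 0.37 (adjusted p = 0.0185) was -0.09 after level centring and did not pass (adjusted p = 0.663). It also did not pass without untreated replicate 3, conjugate replicate 1 or conjugate replicate 2 (adjusted p = 0.0602, 0.0734 and 0.0619).

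At the other end, VARS2 and PARS2, the valyl and prolyl enzymes, barely moved. VARS2 was at 0.14, 0.05 and -0.41 in untreated and at -0.31, -0.35 and 0.07 in conjugate arrays, and PARS2 at 0.07, -0.02 and 0.03 against 0.16, 0.51 and -0.06. Both overlapped, with changes of -0.12 ± 0.20 and 0.18 ± 0.17 (adjusted p = 0.587 and 0.366). SARS2, the seryl enzyme, was the mitochondrial gene whose conjugate values all lay above the untreated ones, at 0.81, 0.24 and 0.47 against -0.00, 0.20 and -0.04, and it missed the threshold (0.45 ± 0.18, adjusted p = 0.0518). In the whole family 18 genes lay apart and lower and 2 apart and higher, where 23.9% and 36.0% of all genes did.

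For 13 amino acids the family has a cytosolic and a mitochondrial gene of matching name, and their difference on each array can be compared between groups. With 3 arrays against 3 the exact permutation test cannot give a p under 0.1, so no pair can pass after adjustment over the 13. The tyrosyl pair differed most. YARS1 minus YARS2 was -0.63, -0.30 and -1.10 in untreated cells and 2.14, 3.10 and 1.76 with the conjugate, a difference between their changes of 3.01 (2-sided exact permutation p = 0.1). IARS1 minus IARS2 went from -0.81, -0.32 and -0.18 to 2.31, 1.75 and 0.82, a difference of 2.06, and NARS1 minus NARS2 from -0.81, -0.92 and -0.76 to 0.85, 0.96 and 0.05, a difference of 1.45. In these pairs the difference was higher on every conjugate array than on every untreated one.

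The leucyl and arginyl pairs went the other way. LARS1 minus LARS2 went from 0.50, 0.39 and -0.29 to -1.87, -2.44 and -0.75, and RARS1 minus RARS2 from -0.06, 0.14 and 0.04 to -0.65, -1.49 and -0.89, with differences of -1.88 and -1.05. After level centring the differences were -0.55 and -1.05. Both cytosolic genes belong to the complex, but so do IARS1 and MARS1, whose pairs had positive differences as deposited (2.06 and 0.92). Over the 13 pairs the cytosolic change was the higher one in 9 as deposited and in 11 after level centring, with median differences of 0.34 and 0.86. The median change over all cytosolic genes minus that over all mitochondrial genes was -0.03 as deposited and 0.22 after level centring. The SD of the deposited difference was 0.34 between the conjugate arrays alone, without the spread of the untreated ones. On single arrays after centring, the cytosolic minus the mitochondrial median was -0.23, -0.22 and -0.35 in untreated and 0.27, 0.22 and 0.46 in conjugate arrays, without overlap. As deposited it was -0.24, -0.22 and -0.32 against -0.50, -0.34 and 0.05, so the contrast of compartments depended on the scaling.

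**Figure D4:**
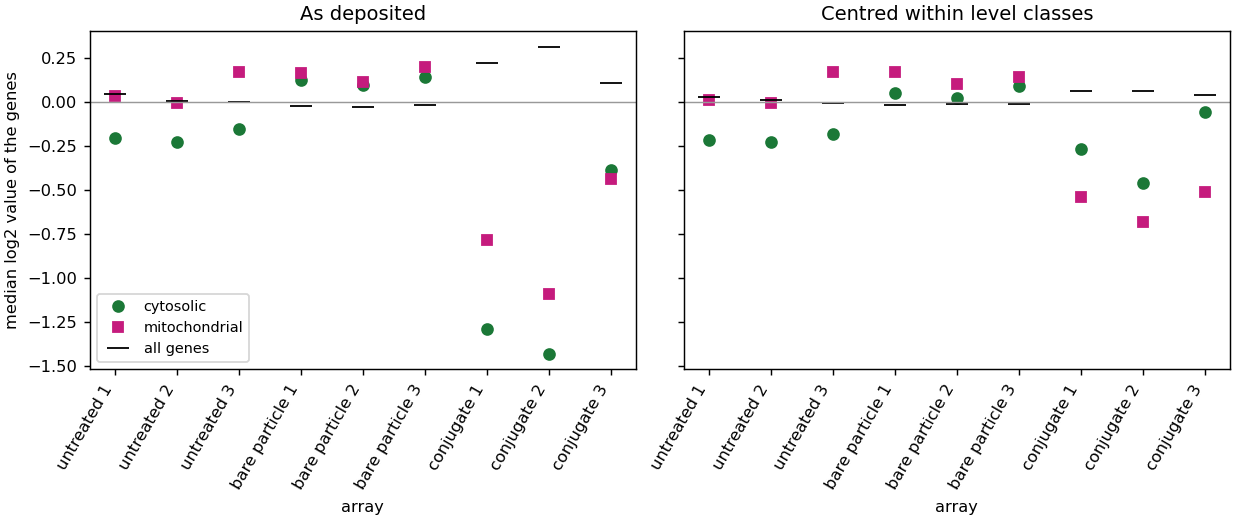
Median log2 value of the 19 cytosolic genes, the 16 mitochondrial genes and all genes on each array, as deposited (left) and after centring within level classes (right). As deposited the cytosolic median is the lower one on conjugate replicates 1 and 2 (-1.29 and -1.43 against -0.79 and -1.09). After centring the mitochondrial median is the lower one on all conjugate arrays (-0.54, -0.68 and -0.51 against -0.27, -0.46 and -0.06).

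With bare particles the changes were small and mostly positive. Against untreated cells, 0 of the 35 genes passed the limma test on all arrays, where 0.0221% of all genes were called higher and 0 lower, and 3 members had an unadjusted p under 0.05. After level centring it was again 0, with 0.0276% of all genes higher, and of the 88 probe sets 0 passed, with 0.00811% of all probe sets higher. Quantile normalization called 8 members, all higher (all genes, 6.97% higher and 8.37% lower). The change was positive in 28 of the 35 genes, and in 7437 of all 18132 genes. Its median was 0.35 over the cytosolic and 0.13 over the mitochondrial genes, against -0.06 over all genes. For 13 genes (9 cytosolic, 4 mitochondrial) every bare particle array lay above every untreated one, and for 0 genes below. Of all genes, 12.4% lay apart and higher and 21.5% apart and lower. After level centring the count was again 13, with 8 cytosolic and 5 mitochondrial genes, where 12.9% of all genes lay apart and higher and 18.1% lower.

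CARS1, the cysteinyl enzyme, had the largest shift. It was at -0.88, -0.93 and -1.11 in untreated cells and at 0.63, 0.20 and 0.65 with bare particles, well clear of each other. The change was 1.47, 2.77-fold higher, and its 3 probe sets gave 1.46, 1.49 and 1.45. In the fit on all arrays the error was 0.63 and the gene did not pass (adjusted p = 0.864). That fit takes 1 spread for all groups, and CARS1 varied widely on the conjugate arrays (-1.67, -3.29 and 0.04). In the fit of the untreated and bare particle arrays alone the error was 0.14 and it passed (adjusted p = 0.00937), as the sole member to do so, where 0.314% of all genes were called higher. With group weights it passed as well (adjusted p = 0.0115).

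FARS2, the mitochondrial phenylalanyl enzyme, was at -0.41, -0.38 and -0.25 in untreated cells and at 0.36, 0.13 and 0.15 with bare particles. WARS1 was at -0.66, -0.63 and -0.18 against 0.08, -0.03 and 0.20. Neither overlapped. Their changes of 0.56 ± 0.16 and 0.57 ± 0.19 did not pass on all arrays (adjusted p = 0.864 for each) or on the 2 groups alone (adjusted p = 0.0719 and 0.0926). They passed with group weights (adjusted p = 0.0239 and 0.0365), as did GARS1, which was at 0.19, 0.07 and 0.31 with bare particles (0.62, adjusted p = 0.0292). With those weights 2.60% of all genes were called higher and 1.33% lower.

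The genes whose promoter window holds TGATGNAA were all among those that lay apart. The 8 holders printed above changed by 0.20 to 1.47, and for each of them every bare particle array was above every untreated one, before and after level centring. Of the 22 members with a window and no match, 5 lay apart and higher, and of the 5 members with no window, 0 did. The medians were 0.43 for the 8 holders and 0.14 for the 22. The match was noticed with these values in view and carries no test. Over all measured genes a match went with no such shift: 58 of 522 holders lay apart and higher (11.1%), against 13.3% of the 13903 genes whose window has no match. AARS1, for example, was at 0.09, 0.23 and -0.36 in untreated cells and at 0.34, 0.40 and 0.61 with bare particles, and NARS1 at -0.17, -0.45 and -0.32 against 0.11, 0.02 and 0.15.

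**Figure D5:**
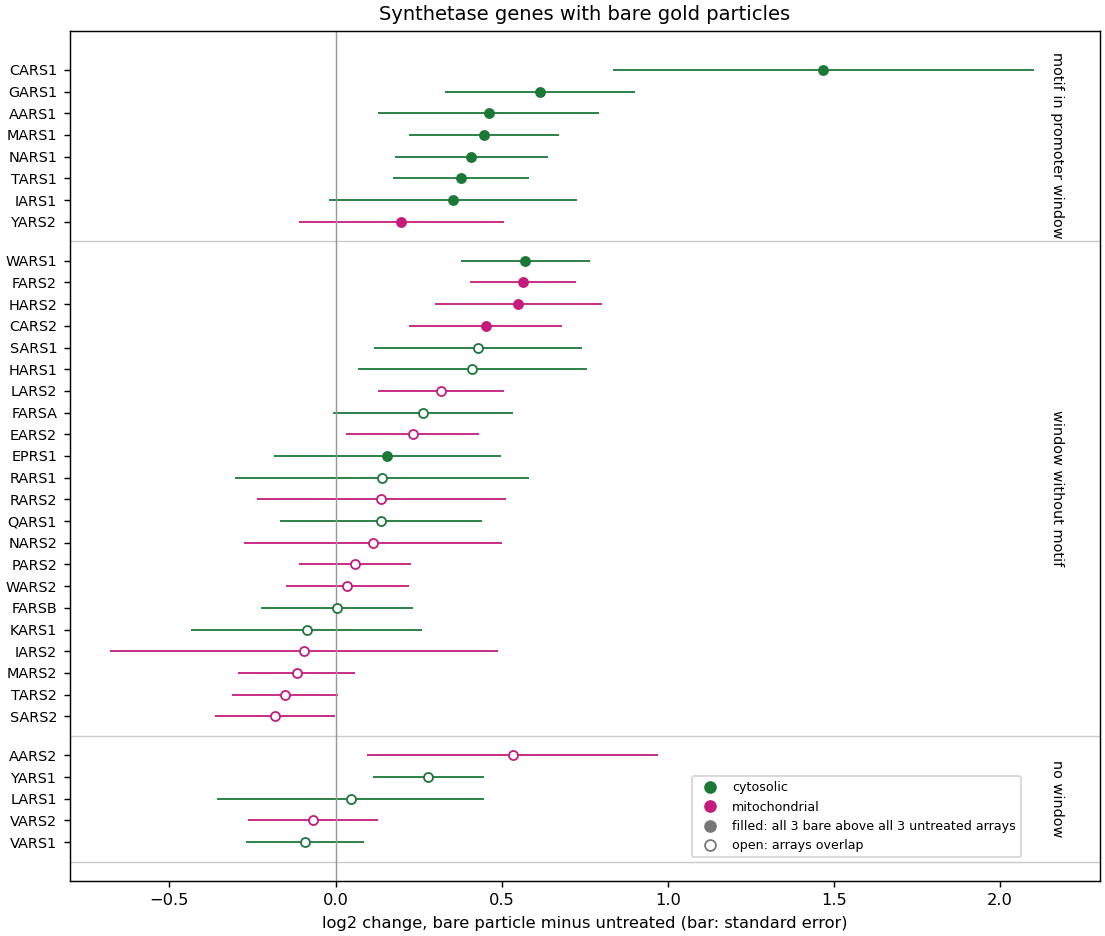
Log2 change of each synthetase gene with bare particles against untreated cells, with the standard error of the fit on all arrays, grouped by whether the promoter window holds the motif described in the text. Filled points mark genes whose 3 bare particle arrays all lay above the 3 untreated ones. All 8 points of the top group are filled, 5 of 22 in the middle group and 0 of 5 in the bottom group.

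HARS1 and HARS2, which share the promoter stretch printed above, changed by 0.41 and 0.55 with bare particles and by -0.77 and -1.19 with the conjugate. HARS2 lay apart in both comparisons. HARS1, at -0.52, -0.26 and 0.21 in untreated cells, 0.21, 0.27 and 0.20 with bare particles and -1.40, -1.43 and -0.05 with the conjugate, overlapped in both. Over all members the cytosolic minus the mitochondrial median change was 0.23 with bare particles. Its SD was 0.09 between the bare particle arrays alone, without the spread of the untreated ones. In the pairs of matching name the cytosolic change was the higher one in 9 of 13 pairs, by a median of 0.30. CARS1 minus CARS2 differed most, by 1.02, from -0.50, -0.97 and -1.25 to 0.36, -0.15 and 0.11 (2-sided exact permutation p = 0.1).

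Between the conjugate and the bare particles, which share the gold core, 16 cytosolic genes fell and 1 rose, and 12 mitochondrial genes fell and 1 rose, where 29.1% of all genes were called lower and 43.2% higher. The medians were -1.19 and -1.14, against 0.30 over all genes. After level centring 10 cytosolic and 11 mitochondrial genes were lower and 2 cytosolic genes higher, where 26.3% of all genes were lower and 30.9% higher. Of the probe sets, 56 of the 88 fell and 5 rose, where 28.3% of all probe sets were lower and 36.3% higher. Of the genes that lay apart and higher with bare particles, CARS1 was lower with the conjugate by 2.14 ± 0.63 (adjusted p = 0.0133) and FARS2 by 1.35 ± 0.16 (adjusted p = 0.000419). As deposited the 2 that rose were YARS1 and SARS2, by 0.43 ± 0.17 and 0.64 ± 0.18 (adjusted p = 0.0406 and 0.0107). After level centring SARS2 did not pass (0.27, adjusted p = 0.234), and the 2 higher genes were YARS1 and SARS1. The probe sets of SARS2 were at 1.10, in the dim class, and 0.17. In the fit of the conjugate and bare particle arrays alone YARS1 did not pass (adjusted p = 0.0514). This comparison shares its conjugate arrays with the one against untreated cells, so the counts are not separate evidence.

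The other genes of the charging pathway were counted from lists of 57 genes, of which 50 were measured. Their counts stand beside 25.1% of all genes lower and 33.1% higher as deposited, and 21.5% and 22.6% after level centring. Of the 4 genes for amidation and formylation of mitochondrial tRNA, 3 fell with the conjugate, among them QRSL1 (-1.32, adjusted p = 0.00124), which makes glutaminyl-tRNA where no mitochondrial glutaminyl enzyme exists. Of the 5 selenocysteine genes, 3 fell, SEPHS2 the most (-1.48, adjusted p = 0.00219), and EEFSEC rose (0.69, adjusted p = 0.0123). Of the 7 elongation factors that carry charged tRNA to the ribosome or recharge the carrier with GTP, 4 fell, with the mitochondrial TSFM at -1.86 (adjusted p = 0.00438). After level centring 1 of the 7 fell and 2 rose, and EEF1G turned from -0.81 (adjusted p = 0.0297) to 0.36 (adjusted p = 0.0331). Of the 4 quality control genes, 3 fell, DTD2 by 1.93 (adjusted p = 0.0114), which after level centring did not pass (-0.76, adjusted p = 0.093). The centred count of that list was 1 lower and 1 higher. Of the 14 genes for tRNA transcription and maturation, 6 fell, such as RPP38 (-0.85, adjusted p = 0.00311), and 2 rose, LAGE3 (1.24, adjusted p = 0.00153) and BRF1 (0.56, adjusted p = 0.00952).

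Of the 15 genes that sense uncharged tRNA or answer to ATF4, 4 fell with the conjugate and 2 rose. EIF2AK4, which codes for the kinase GCN2, fell by 1.12 (adjusted p = 0.00358), and SLC7A11, the cystine carrier, rose by 0.92 (adjusted p = 0.00536). After level centring 7 of the 15 rose and 2 fell, where 22.6% of all genes were called higher and 21.5% lower. In all 50 genes 24 fell and 5 rose, and fewer fell without conjugate replicate 1 (8, with 5 that rose), untreated replicate 2 (13, with 4) or untreated replicate 3 (14, with 4). The shares of all genes without these arrays are not given here. The drop is therefore not read as a result about the pathway genes. After level centring 15 of the 50 fell and 14 rose, beside the centred shares of all genes just given. With bare particles 14 of the 15 changed upward in sign, with a median of 0.45. Of all 18132 genes 7437 did, and their median was -0.06. SLC7A11 alone passed (1.71, adjusted p = 0.0233), and it did not pass after level centring (1.69, adjusted p = 0.0534), nor without any 1 of the untreated replicates, conjugate replicate 1 or bare particle replicate 1 or 3. ASNS, which makes asparagine, changed by 1.26 and did not pass on all arrays (adjusted p = 0.864). In the fit of the 2 groups alone ASNS passed (adjusted p = 0.0319), as did SLC7A11, PSAT1 and PHGDH (adjusted p = 0.00816, 0.0182 and 0.0312).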

How the data were processed

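RNA of 9 Y79 samples was measured on Affymetrix PrimeView arrays. The deposited values are logs, read here as log2, with a separate baseline subtracted for every probe set. Summary tool and normalization are not given in the sources used here, nor is the log base. The table holds 49395 probe sets, from which 102 array controls were dropped. Of the rest, 44988 had 1 gene symbol in the platform annotation, 1832 several and 2473 none. Probe sets with 1 symbol were averaged into genes. One limma 3.58.1 model over all 9 arrays (R 4.3.3, lmFit then eBayes; files read with version 1.17.8 of data.table) gave 2-sided p-values, adjusted by Benjamini-Hochberg over 18132 genes or 49293 probe sets, and 0.05 was the threshold. An error after ± is the model's standard error unless SD is written.

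Level classes were read from the step size of the stored numbers and were right for 97.6% of simulated ones. Data of 18132 genes were simulated for conjugate against untreated. The fit of all arrays found 78% of log2 changes of 1 and all of 2, with 50 false calls. The fit of the 2 groups alone found 47% of changes of 1, with 0 false calls. The fit of all arrays takes 1 spread for all groups. The median SD over all genes was 0.15 in untreated, 0.09 in bare particle and 0.40 in conjugate arrays. How many genes were given a change is not stated here, so 50 may be a large part of the calls. The conjugate calls of the fit of all arrays may therefore include more false ones than the threshold implies. For bare particle against untreated the fit of all arrays found 81% of changes of 1, with 0 false calls, and the fit of the 2 groups 100%, with 3. Every simulated gene had the median spread of its group. The percentages therefore do not hold for genes with more spread, such as CARS1. The number of arrays limits the precision.

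The members and lists were chosen with earlier results of these data known. Values on every array are given for the 6 called and non-overlapping cytosolic and the 6 mitochondrial genes with the largest conjugate changes, the 2 of each with the smallest, the 3 with the smallest p with bare particles, KARS1, GARS1 and WARS1, and for genes named after their values were seen (YARS1, SARS2, AARS1, NARS1, the pairs). Alternatives were quantile normalization, median or level class centring, the replicate block, 2 groups only, group weights, trend and robust moderation, gene means without s and x probe sets, each array left out, and, added later, level centring with 2 groups only. Same-numbered arrays did not deviate together (r from -0.03 to 0.23), so the numbers were not taken to pair them. Promoter sequences are from RefSeq, and protein sequences were not used here.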

Additional observations from a re-analysis of the deposited data

Results flagged for a closer look

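The hybridization control probe sets, which are in the deposited table and outside all comparisons above, lay at 1.68 on the conjugate arrays (mean of 18 probe sets, n = 3) and above all 3 untreated arrays, where their mean was -0.38. This signal in data that the comparisons do not use was picked out because it exceeds the level in untreated cells, and its part in the synthetase changes was not tested.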

How the results depend on the processing

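Under quantile normalization 10 synthetase genes and 16 probe sets were called for conjugate against untreated (21 and 44 as reported), 8 genes and 17 probe sets for bare particle against untreated (0 and 0), and 9 and 15 pathway genes (29 and 1). It also gave a cytosolic minus mitochondrial median change of 0.448 with bare particles (0.228 as reported). Centring within level classes gave 28 called probe sets for conjugate against untreated, 12 genes when joined with a fit of the 2 groups (an alternative chosen after seeing the data), and 0.377 as the compartment difference of conjugate against bare particle (-0.0457 as reported). It left 0 pathway genes with bare particles, as did the replicate block, the trend and robust setting and the mean without s and x probe sets. For bare particle against untreated, the fit of the 2 groups gave 1 gene, 2 probe sets and 4 pathway genes, and group weights 4, 9 and 5. Level centring with 2 groups gave 1 gene there. The fit of the 2 groups gave 16 pathway genes for conjugate against untreated. With the replicate block 23, 0 and 28 synthetase genes were called in the 3 comparisons, 48, 0 and 63 probe sets and 30, 0 and 39 pathway genes, and GARS1 passed as lower with the conjugate (-0.70, adjusted p = 0.0477). Shares of all genes under the replicate block, and of all probe sets under any alternative, are not given here. Those counts are therefore not read as results about the members.

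Direction turned for several genes with the conjugate. TARS1, called as lower at -0.76, became 0.41 under level centring, and CARS1 and MARS1, not called, became 0.06 and 0.0067. SARS1 (-0.39 to 0.19 with 1 array left out) became 0.75 under quantile normalization, 1.13 under level centring (also with 2 groups), 0.19 without untreated replicate 1, 0.075 without conjugate replicate 1 and 0.19 without conjugate replicate 2. VARS1 became -0.077 under quantile normalization, -0.097 under median centring, -0.002 without untreated replicate 1 and -0.040 without conjugate replicate 1. VARS2 became 0.092 under quantile normalization, PARS2 -0.14 under level centring, GARS1 0.51 and 0.47, and WARS1 0.56 and 0.51, under quantile normalization and level centring in turn. The cause was not tested.

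Leaving out 1 array gave 16 to 28 synthetase genes and 29 to 61 probe sets for conjugate against untreated, 0 to 0 of both for bare particle against untreated, and 25 to 31 genes and 51 to 68 probe sets for conjugate against bare particle. The share of all genes called moved too. For conjugate against untreated it was 33.1% higher and 25.1% lower on all arrays, and 45.7% and 31.8% without conjugate replicate 3. The ranges, and those of the pathway genes that follow, are therefore not read as results about the genes counted. Pathway genes ranged from 13 to 38, 0 to 1 and 33 to 45, and the compartment difference from -0.289 to 0.105, 0.119 to 0.279 and -0.426 to 0.0709. The 29 probe sets were found without untreated replicate 3, the 0.119 without untreated replicate 1 and the -0.426 without conjugate replicate 3. YARS1 and IARS2 have no probe set other than s or x types, so they have no value under that alternative.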
